A study of Mus musculus with 23 samples.

Results

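Egr1 and Egr2 are the members of the early growth response family of transcription factors that the array measured here. They were chosen by gene symbol, as all probe sets annotated to either name, and each had 1 probe set, 98579_at for Egr1 and 102661_at for Egr2. They are 2 of the 8131 genes that the array's annotation names by a single symbol, and both passed the filter on low values. No probe set matched Egr3 or Egr4.

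The series profiled total RNA of mouse embryonic stem (ES) cells, which are pluripotent cells grown from the early embryo, on 23 oligonucleotide arrays. The arrays fall into 12 groups, 4 lines by 3 plasmids, each with 2 arrays except E100 with vector, which has 1, and all cells were taken 72 h after transfection. E81 and E100 carry the labelled genotype -/-, E99 carries +/-, and the E14 line is wild type. The mutated gene is not named in the labels and is taken here, from knowledge of the study, to be Srf, the gene of serum response factor. The plasmids were SRF-VP16, which joins SRF to the strong viral activation domain VP16, SRFdM-VP16, which the labels give as its control, and the empty vector. Each line is 1 clone or 1 parental line, so line and genotype cannot be told apart within E99 and wild type. The labels do not say that the duplicate arrays came from separate cultures, so every p-value measures only the spread between these arrays, which may be technical. The number of arrays limits the precision.

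EGR proteins are zinc-finger factors that bind short GC-rich sites in DNA. Their genes are immediate-early genes, switched on within minutes of serum or growth factor without new protein synthesis. SRF drives them from CArG boxes in their promoters, together with ternary complex factors such as ELK1 that bind Ets sites beside the box and are activated by MAP kinases. EGR1 is a general factor of the growth and stress response, and EGR2, also called KROX20, is best known for patterning the hindbrain and for myelination by Schwann cells. NAB1 and NAB2 bind EGR proteins and repress their activity.

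The Egr2 promoter is shown because the comparison of the gene with and without SRF bears on it. The RefSeq promoter table (GRCm38.p6) holds 5 Egr2 windows on chromosome 10, plus strand, each from 250 bases before an annotated start to 50 after it, and 4 of them hold a CArG box, the SRF motif. The 4 windows hold 2 distinct boxes, since the last 3 overlap. The box is written in capitals in both windows below, and in each it lies from base -72 to base -63 relative to that start.
Egr2 start with the box CCATATATGG, chr10:67537619-67537918: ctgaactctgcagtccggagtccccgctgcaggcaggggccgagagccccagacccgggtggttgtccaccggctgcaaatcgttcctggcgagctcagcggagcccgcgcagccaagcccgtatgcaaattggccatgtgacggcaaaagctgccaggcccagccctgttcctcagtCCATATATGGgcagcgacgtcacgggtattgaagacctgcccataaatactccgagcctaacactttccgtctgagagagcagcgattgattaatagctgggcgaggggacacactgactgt
Egr2 upstream start with the box CCTTTTTTGG, chr10:67537316-67537615: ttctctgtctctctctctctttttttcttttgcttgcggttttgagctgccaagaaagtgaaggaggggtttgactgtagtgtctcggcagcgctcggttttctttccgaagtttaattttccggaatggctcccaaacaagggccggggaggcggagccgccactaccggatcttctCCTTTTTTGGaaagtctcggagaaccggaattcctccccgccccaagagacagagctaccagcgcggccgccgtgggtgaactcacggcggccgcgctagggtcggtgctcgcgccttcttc
A CArG box was found in 1.63% of the 32851 promoter windows of the table and in 1.81% of its 27025 genes. The Ets core GGAA, searched on both strands, occurred 3 times in the first printed window and 6 times in the second, but 96.0% of all windows hold it. Neither EGR site searched on both strands, GCGTGGGCG (in 0.612% of windows) or GCGGGGGCG (in 2.91%), had a match in an Egr2 window. A match is a run of letters and not a site shown to be bound. Egr1 has no entry in the table.

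With SRF-VP16, both genes stood highest in the -/- lines, lower in E99 and lowest in wild type. Egr1 and Egr2 rose in the -/- lines over SRFdM-VP16. Without the activator, Egr1 was low in the -/- lines and highest in E99, whereas Egr2 had like intensities in all lines. Intensities are on the deposited linear scale, which includes negative values. For the tests, values under 58, the 40th percentile of all values, were set to 58 before log2 was taken. RNA came from whole cultures, so a change in the number of cells that express a gene and a change in its RNA per cell cannot be told apart.

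Egr1 with SRF-VP16 had intensities of 7648 and 16764 in E81 and 17339 and 22881 in E100. With SRFdM-VP16 it had 320 and 296 in E81 and -50 and 404 in E100. All 4 SRF-VP16 arrays of the -/- lines lay far above their SRFdM-VP16 arrays, and 1 SRFdM-VP16 array gave no signal above the floor. SRF-VP16 arrays above all control arrays of the -/- lines were found for 3.34% of probe sets. The means were 16158 ± 6308 with SRF-VP16 and 242.5 ± 200.4 with SRFdM-VP16 (SD, n = 4 arrays each). In the fit of all probe sets with limma, the log2 difference was 6.11 ± 0.49 (SE; 95% interval 5.06 to 7.16), a 69.2-fold rise with a Benjamini-Hochberg adjusted p of 1.5e-05. This fold depends on the floor because of the array at -50, and without it the difference was 5.41.

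Egr2 with SRF-VP16 had intensities of 4153 and 9654 in E81 and 6962 and 10547 in E100. With SRFdM-VP16 it had 608 and 583 in E81 and 661 and 436 in E100. All SRF-VP16 arrays lay above every control array of the -/- lines, a pattern found for 3.34% of probe sets. All 8 values were well above the floor. The means were 7829 ± 2886 with SRF-VP16 and 572 ± 96.3 with SRFdM-VP16 (SD, n = 4 arrays each). The log2 difference was 3.70 ± 0.27 (SE; 95% interval 3.12 to 4.28), a 13.0-fold rise with a limma adjusted p of 6.8e-06. In this comparison 272 of 9643 probe sets tested, 2.82%, passed the adjusted threshold of 0.05, and both members were among the 239 that rose, 2.48%. Calls numbered 239 higher and 33 lower as deposited, 238 and 111 with quantile normalization and 165 and 119 after division by the array median.

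**Figure D1:**
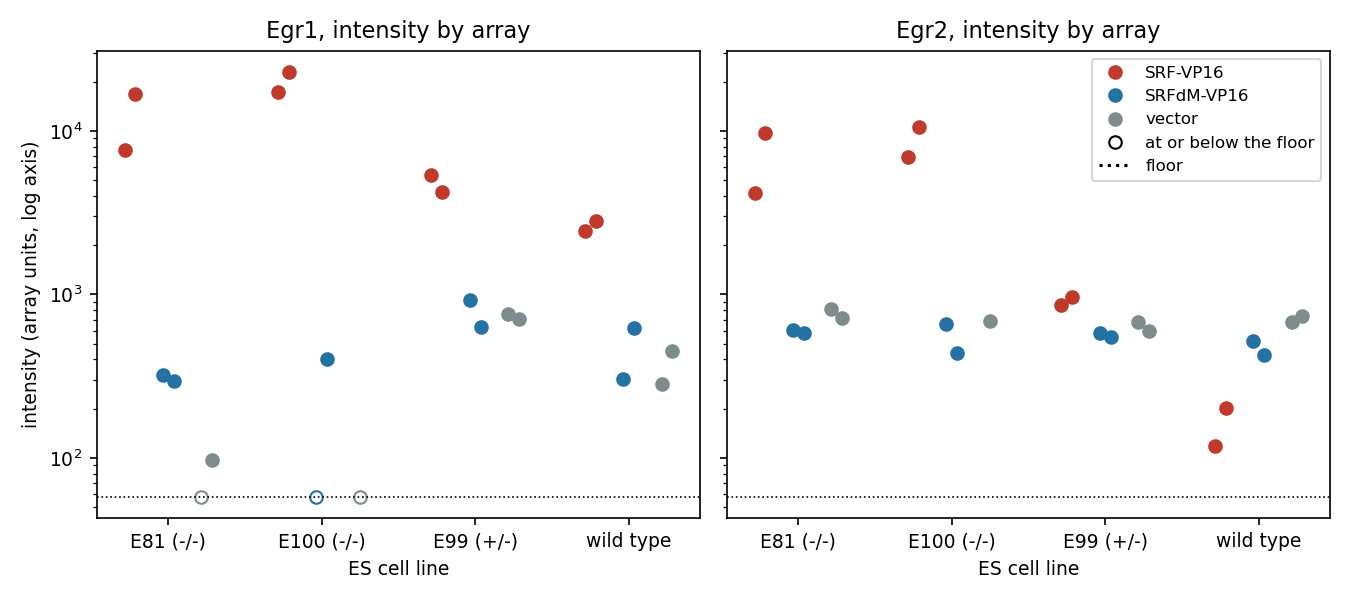
Intensity of Egr1 and Egr2 on each array, on a log scale, by line (E81, E100, E99, wild type) and plasmid; open circles are values at or below the floor of 58, drawn at the floor. With SRF-VP16 Egr1 runs between 7648 and 22881 in the -/- lines, 4199 and 5351 in E99 and 2426 and 2816 in wild type, and Egr2 lies below its controls in wild type alone.

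Averaged over the 4 lines, the log2 difference was 4.36 ± 0.34 for Egr1 (limma adjusted p = 2.6e-05) and 1.62 ± 0.19 for Egr2 (adjusted p = 0.00052), where 1.96% of probe sets passed. The Egr2 average joins lines of opposite sign, since the wild-type difference given below is under 0. Both -/- lines gave the rise on their own. Egr1 rose by 5.20 ± 0.69 on the log2 scale in E81 (limma adjusted p = 0.0023) and by 7.02 ± 0.69 in E100 (adjusted p = 0.00014). Egr2 rose by 3.41 ± 0.38 in E81 (adjusted p = 0.00068) and by 4.0 ± 0.38 in E100 (adjusted p = 0.00011). Of all probe sets, 1.01% passed in E81 and 1.18% in E100. The responses of the lines, E81 minus E100, differed by -1.82 for Egr1 (95% interval -3.92 to 0.28, limma adjusted p = 0.50) and by -0.59 for Egr2 (95% interval -1.74 to 0.57, adjusted p = 0.64), beside a median of 0.52 over all probe sets and with 0.145% of them past the threshold. The Egr1 interval leaves room for a several-fold gap between the lines. The gap for Egr1 was -0.42 without the first E100 SRFdM-VP16 array, -3.22 without the second and -0.65 with the floor at the 60th percentile, and the Egr1 rise in E100 was 5.62 without the first and 8.42 without the second. The gap for Egr2 was -1.37 with quantile normalization, -1.51 after division by the array median, and between -1.19 and 0.023 without any 1 array.

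The sizes of the 2 rises were compared array by array in the -/- lines. The log2 ratio of Egr1 to Egr2 averaged 1.03 with SRF-VP16 (0.80 to 1.32) and -1.38 with SRFdM-VP16 (-3.51 to -0.11). By the difference of 2.41, Egr1 rose by the larger factor on these floored values. The exact permutation p was 0.0286, two-sided, the smallest that 4 arrays against 4 allow. The permutation ignored line and took duplicate arrays as separate units. The ratio of -3.51 came from the E100 array with Egr1 at -50. Leaving out 1 array at a time gave differences as low as 1.70. With vector as the control the difference was 4.45. The spread of this ratio was much wider with SRFdM-VP16, where Egr1 lay near the floor.

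In E99, which keeps 1 intact allele, Egr1 had 5351 and 4199 with SRF-VP16, against 632 and 926 with SRFdM-VP16 and 709 and 755 with vector. Both SRF-VP16 arrays lay above every control array of the line. The log2 difference from SRFdM-VP16 was 2.63 ± 0.69 (95% interval 1.14 to 4.12), which at 2 arrays against 2 did not pass over all probe sets (limma adjusted p = 0.51). Egr2 had 865 and 962 with SRF-VP16, against 547 and 581 with SRFdM-VP16 and 594 and 674 with vector. Its arrays did not overlap either, but the log2 difference was small, 0.69 ± 0.38 (95% interval -0.12 to 1.51, limma adjusted p = 1.0). After each array was divided by its median the Egr2 difference was 0.096. Only 4 probe sets, 0.0415%, passed in E99: Igfbp6, Ppfibp2, Mc3r and Gramd3, named because the count is short. SRF-VP16 arrays above all control arrays of E99 were found for 8.46% of probe sets, so non-overlap alone is common in this line.

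In wild type the 2 genes stood on opposite sides of their controls. Egr1 had 2426 and 2816 with SRF-VP16, against 303 and 624 with SRFdM-VP16 and 283 and 449 with vector. Egr2 had 118 and 201 with SRF-VP16, against 522 and 427 with SRFdM-VP16 and 675 and 735 with vector. Egr1 was thus above, and Egr2 below, every control array of the line. SRF-VP16 arrays above all wild-type controls were found for 3.8% of probe sets, and below all of them for 5.27%.

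Neither wild-type difference passed over all probe sets. For Egr1 the log2 difference from SRFdM-VP16 was 2.59 ± 0.69 (95% interval 1.10 to 4.07, limma adjusted p = 0.94). For Egr2 it was -1.62 ± 0.38 (95% interval -2.44 to -0.80, limma adjusted p = 0.93). The Egr2 difference depended on the settings: with vector as the control it was -2.19 and passed (limma adjusted p = 0.048), and with the floor at the 60th percentile it was -0.66 (adjusted p = 1.0). Only 2 probe sets, 0.0207%, passed against SRFdM-VP16 in wild type, Igfbp6 and 1 without a gene name. An SRF-VP16 group above every control array in the -/- lines and below every control array in wild type, as for Egr2, was found for 6 of 9643 probe sets, 0.0622%. Egr1 was instead 1 of 20 probe sets, 0.207%, whose SRF-VP16 arrays lay above the controls of their own line in all 4 lines.

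**Figure D2:**
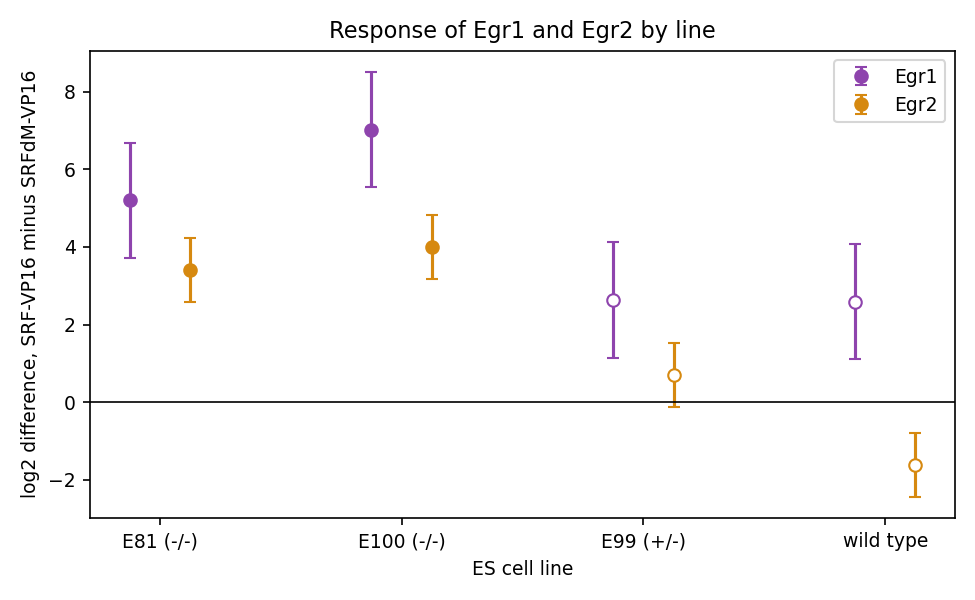
Log2 difference between SRF-VP16 and SRFdM-VP16 for Egr1 and Egr2 in each line, with 95% intervals; filled points passed the adjusted threshold of 0.05. Egr1 lies at 5.20 and 7.02 in the -/- lines, 2.63 in E99 and 2.59 in wild type, and Egr2 at 3.41 and 4.0 in the -/- lines, 0.69 in E99 and -1.62 in wild type.

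The labelled genotype, standing for the dose of endogenous SRF, was set against the response, as the difference between the SRF-VP16 effects of the lines. The amounts of SRF and of SRF-VP16 in each line were not examined. The Egr2 response was larger in the -/- lines than in wild type by 5.32 ± 0.47 on the log2 scale (95% interval 4.32 to 6.32, limma adjusted p = 0.00014). It was larger in the -/- lines than in E99 by 3.01 ± 0.47 (95% interval 2.01 to 4.01, adjusted p = 0.036). Few probe sets passed these tests, 8 (0.083%) against wild type and 7 (0.0726%) against E99. The trait was not particular to 1 gene: Crabp2, Tnnc1, Nppb and Actg1 passed both, and so did Egr2. The call against E99 did not hold after division by the array median, where the difference was 3.23 (adjusted p = 0.17), nor without any 1 of the 4 E99 arrays or the second E100 SRFdM-VP16 array, where the adjusted p lay between 0.051 and 0.15. In E99 against wild type the Egr2 responses differed by 2.31 ± 0.54 (95% interval 1.15 to 3.47), which did not pass (limma adjusted p = 1.0) and was 1.35 with the floor at the 60th percentile; 1 probe set without a gene name passed, 0.0104%.

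For Egr1 the response differed by 3.52 ± 0.85 between the -/- lines and wild type (95% interval 1.70 to 5.35) and by 3.48 ± 0.85 between the -/- lines and E99 (95% interval 1.66 to 5.30). Neither passed (limma adjusted p = 0.28 for each). Both depend on the E100 SRFdM-VP16 arrays: without the second one, at 404, they were 4.22 (adjusted p = 0.0084) and 4.18 (adjusted p = 0.024), and without the first, at -50, they were 2.82 and 2.78 and did not pass. The Egr1 responses of E99 and wild type differed by 0.04 ± 0.98 (95% interval -2.06 to 2.15, adjusted p = 1.0), an interval wide enough for a 4-fold gap either way.

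Arrays with the activator also stood in an order by line, -/-, E99, wild type. The step between the -/- lines and E99 was not tested. For both genes every -/- array lay above both E99 arrays, and both E99 arrays lay above both wild-type arrays, an order found for 95 of 9643 probe sets, 0.985%. Egr2 was higher in the -/- lines than in wild type by 5.58 ± 0.33 on the log2 scale (95% interval 4.87 to 6.29, limma adjusted p = 2e-06), a 47.8-fold gap. In this comparison 44 probe sets, 0.456%, passed, 42 of them higher (0.436%) and 2 lower, against 27 and 13 with quantile normalization and 20 and 8 after division by the array median. Egr1 differed by 2.52 ± 0.60 (95% interval 1.24 to 3.81), which did not pass (adjusted p = 0.10). Egr2 was also higher in E99 than in wild type by 2.57 ± 0.38 (95% interval 1.75 to 3.39, adjusted p = 0.046), a 5.92-fold gap. Here only Egr2, Eif2s3y and Ppfibp2 passed, 0.0311%. The Egr2 call held in 3 of 13 alternative settings. It did not hold with quantile normalization (limma adjusted p = 0.18), division by the array median (0.66), the floor at the 60th percentile (1.61, adjusted p = 1.0) or a replicate block (0.076 across groups, 0.64 within line), nor without the first wild-type SRF-VP16 array or either E99 SRF-VP16 array, where the adjusted p lay between 0.074 and 0.14. For Egr1 the gap between E99 and wild type was 0.86 ± 0.69 (95% interval -0.63 to 2.35, adjusted p = 1.0), within the spread.

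Without SRF-VP16 the SRFdM-VP16 and vector arrays were pooled as controls, 7 for the -/- lines and 4 each for E99 and wild type. Egr1 in the vector arrays was 16 and 97 in E81 and 7 in E100, so 3 of the 7 control arrays of the -/- lines were at or below the floor. Over the -/- controls Egr1 averaged 156 ± 181 (n = 7, median 97, highest 404), against 756 ± 124 in E99 and 415 ± 158 in wild type (SD, n = 4 each). E99 was thus highest, with every E99 array above every wild-type array and every -/- array. That order was found for 0.664% of probe sets against wild type and for 0.218% against the -/- lines.

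Egr1 was lower in the -/- controls than in the E99 controls by a log2 difference of -2.64 ± 0.44 (95% interval -3.59 to -1.70, limma adjusted p = 0.042). In this comparison 11 probe sets, 0.114%, passed. With SRFdM-VP16 arrays alone the difference was -1.82 and did not pass (adjusted p = 1.0), and without any 1 of the E99 control arrays, the E100 vector array or the first E81 SRFdM-VP16 array the adjusted p lay between 0.052 and 0.16. With the floor at the 60th percentile the difference was -1.26 and passed. Against wild type the difference was -1.72 ± 0.44 (95% interval -2.67 to -0.77, adjusted p = 0.25), where 0.083% passed. It was -2.07 and passed without the second E100 SRFdM-VP16 array (limma adjusted p = 0.01), but it was -0.35 with the floor at the 60th percentile and -1.0 with SRFdM-VP16 arrays alone (adjusted p = 1.0 for each). E99 minus wild type was 0.93 ± 0.49 (95% interval -0.12 to 1.98, adjusted p = 1.0), where 0.0726% passed.

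Egr2 showed no such gap. In the vector arrays it had 816 and 714 in E81, 691 in E100, 594 and 674 in E99 and 675 and 735 in wild type. Over both control plasmids it averaged 644 ± 119 in the -/- lines (n = 7), 599 ± 53.8 in E99 and 590 ± 141 in wild type (SD, n = 4 each). The log2 differences were 0.15 ± 0.24 for -/- minus wild type (95% interval -0.37 to 0.67), 0.10 ± 0.24 for -/- minus E99 (-0.42 to 0.62) and 0.05 ± 0.27 for E99 minus wild type (-0.53 to 0.63), and none passed. The intervals leave out a change of Egr2 by as much as 1 log2 unit between the control cells of these lines. Across all 15 control arrays Egr2 stayed between 427 and 816.

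**Figure D3:**
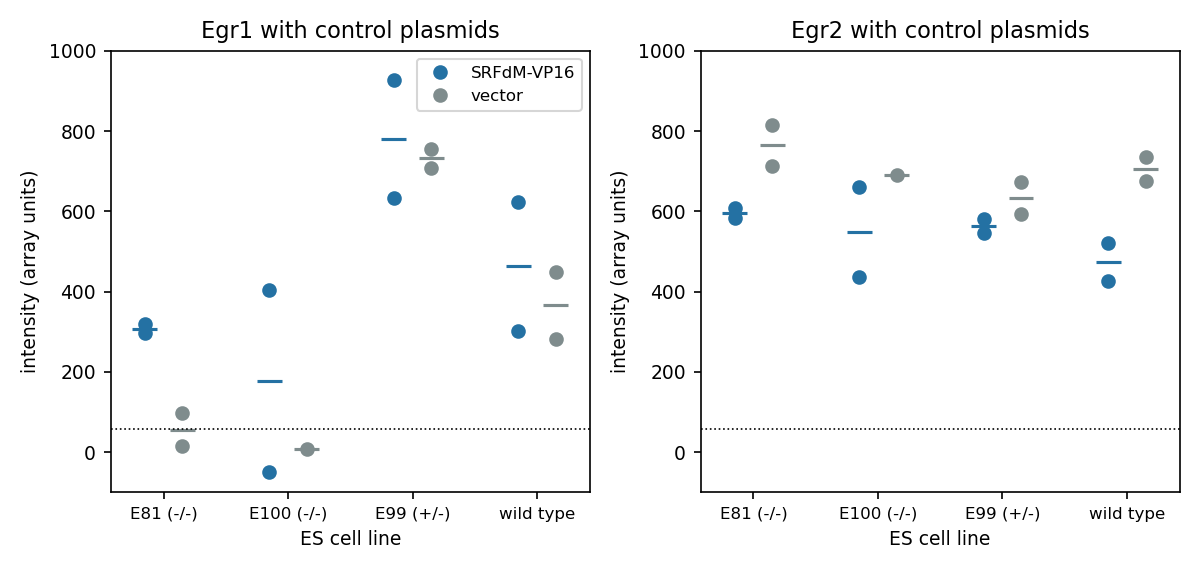
Intensity of Egr1 and Egr2 on the 15 control-plasmid arrays by line, on a linear scale. Points are arrays by plasmid, bars are means of each line with each plasmid, and the dotted line is the floor of 58. Pooled over both plasmids, and not drawn, Egr1 means are 156 in the -/- lines, 756 in E99 and 415 in wild type. Egr2 means pooled in the same way are 644 in the -/- lines, 599 in E99 and 590 in wild type.

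The 2 control plasmids were compared over all lines. SRFdM-VP16 minus vector was 0.95 ± 0.37 for Egr1 (95% interval 0.16 to 1.74, limma adjusted p = 0.26) and -0.37 ± 0.20 for Egr2 (95% interval -0.80 to 0.07, adjusted p = 0.45). In this comparison 0.799% of probe sets passed, 3 higher (0.0311%) and 74 lower (0.767%), and the median of all probe sets was -0.20; with quantile normalization or division by the array median 1 passed, and it was higher. Relative to that median the Egr2 difference was small, and its sign turned after division by the array median (0.26). The Egr1 difference was 0.14 with the floor at the 60th percentile, 1.5 after division by the array median, and 0.60 without the second E100 SRFdM-VP16 array. The Egr1 intensities with SRFdM-VP16 stood above vector in E81 (320 and 296, against 16 and 97), whereas in E100 they lay on both sides of it (-50 and 404, against 7).

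With SRF-VP16 the -/- lines stood above the wild-type control level for both genes. Against the 4 wild-type control arrays, Egr1 in the -/- lines with SRF-VP16 was higher by 5.25 ± 0.49 on the log2 scale (limma adjusted p = 6.8e-05), 38.1-fold. Egr2 was higher by 3.68 ± 0.27 (adjusted p = 6e-06), 12.8-fold. Of all probe sets 1.76% passed in this comparison.

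The other genes of the EGR circuit were taken from lists by role, and in the -/- lines their counts stand beside 2.82% of 6813 named genes that rose and 0.367% that fell, with a median log2 difference of 0.05. Of the EGR partners, Nab2, the corepressor that EGR proteins themselves are known to induce, rose by 2.13 ± 0.51 (limma adjusted p = 0.041), with 742 ± 154 for SRF-VP16 and 188 ± 107 for SRFdM-VP16 (SD, n = 4 each). That call is close to the threshold and held in 4 of 18 alternative settings. Nab1 differed by 0.83 (adjusted p = 0.18). Wt1, a zinc-finger factor that binds EGR-like sites, differed by 1.56 (adjusted p = 0.11). The median over these 3 was 1.56.

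None of the 6 measured SRF cofactor and MAP kinase genes passed, and their median was 0.11, or 0.054 without the first E81 SRFdM-VP16 array. The ternary complex factors Elk1, Elk3 and Elk4 differed by -0.57, 0.35 and 0.13 (limma adjusted p = 0.66, 0.76 and 0.99), and the sign of Elk3 and Elk4 turned with quantile normalization.

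Among 30 immediate-early genes other than Egr1 and Egr2, 5 rose and none fell, with a median of 0.98. Ccn1, a matrix-associated growth factor-induced protein, rose by 4.54 (limma adjusted p = 0.006). Dusp2, a phosphatase that inactivates MAP kinases, rose by 3.78 (adjusted p = 0.0027), with 5556 ± 2144 for SRF-VP16 and 434 ± 249 for SRFdM-VP16 (SD, n = 4 each). The urokinase receptor gene Plaur rose by 2.18 (adjusted p = 0.0095), Hbegf, a ligand of the EGF receptor, by 2.06 (adjusted p = 0.0015), and the AP-1 subunit Jun by 2.81 (adjusted p = 0.018). Without the first E81 SRFdM-VP16 array, 4 passed, Jun did not, and the median was 0.64.

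The other classical serum-response genes did not pass. Junb, an AP-1 subunit, differed by 3.06 (limma adjusted p = 0.058), and the MAP kinase phosphatase Dusp1 by 1.27 (adjusted p = 0.084). The nuclear receptor gene Nr4a1 differed by -0.36 (adjusted p = 0.75). Fos, the AP-1 subunit whose promoter defined the serum response element, was dim on every array of the comparison, -48 to 185 with SRF-VP16 and -113 to 150 with SRFdM-VP16. Fosb, a relative of Fos, differed by 0.15 (adjusted p = 0.94). Ier2, an immediate-early gene of nuclear function, was bright in both groups, 7113 ± 2209 with SRF-VP16 and 7443 ± 1608 with SRFdM-VP16 (SD, n = 4 each).

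Of 14 measured genes reported as targets of EGR1, 3 rose and none fell, and the median was 0.48. They were Nab2, F3 and Igf2; without the first E81 SRFdM-VP16 array 4 rose, with Pdgfa, a platelet-derived growth factor gene, added. F3, which encodes tissue factor, the starter of blood coagulation, rose by 5.73 ± 0.86 (limma adjusted p = 0.0025), with 5703 ± 3688 for SRF-VP16 and 90.0 ± 84.7 for SRFdM-VP16 (SD, n = 4 each). Igf2, a fetal growth factor, had 7306 to 15151 with SRF-VP16 and was below 0 on all 4 SRFdM-VP16 arrays; its log2 difference of 7.47 (adjusted p = 0.0041) is set by the floor. A second, dim Igf2 probe set had a difference of 0.00. Of 6 measured genes reported as targets of EGR2, none rose and 1 fell, and the median was -0.09, or 0.18 without the first E81 SRFdM-VP16 array. Hoxa2, a hindbrain homeobox gene under EGR2, differed by -0.33 (adjusted p = 0.89), and the myelin gene Pmp22 by 2.75 (adjusted p = 0.27). The one that fell was Mag, another myelin gene, by 0.43 (adjusted p = 0.0094), but its arrays ran from -288 to 3 with SRF-VP16 and from -174 to 114 with SRFdM-VP16, at and around the floor.

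In E99 and in wild type none of the genes in these lists passed, where 0.0294% and 0.0147% of named genes rose. The genes that rose in the -/- lines had, in wild type, log2 differences of 0.91 for Nab2, 2.17 for Ccn1, -0.10 for Dusp2, 0.90 for Plaur, -0.49 for Hbegf, 0.99 for Jun, 2.16 for F3 and 3.41 for Igf2, none past the threshold in limma (adjusted p = 1.0 for each). A gap between the -/- and wild-type responses passed for none of the list genes, whereas it passed for Egr2 and for genes outside the lists, Tnnc1 among them. With RefSeq windows for 24 of the immediate-early genes, 1 held a CArG box (Zfp36), as did 1 of 10 for the EGR1 targets (Igf2). Of all genes with windows 1.81% held one. Only 250 bases before and 50 after each annotated start were searched, for the exact motif. Boxes farther away or with a changed base were not counted, so a gene without a match may still have one.

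**Figure D4:**
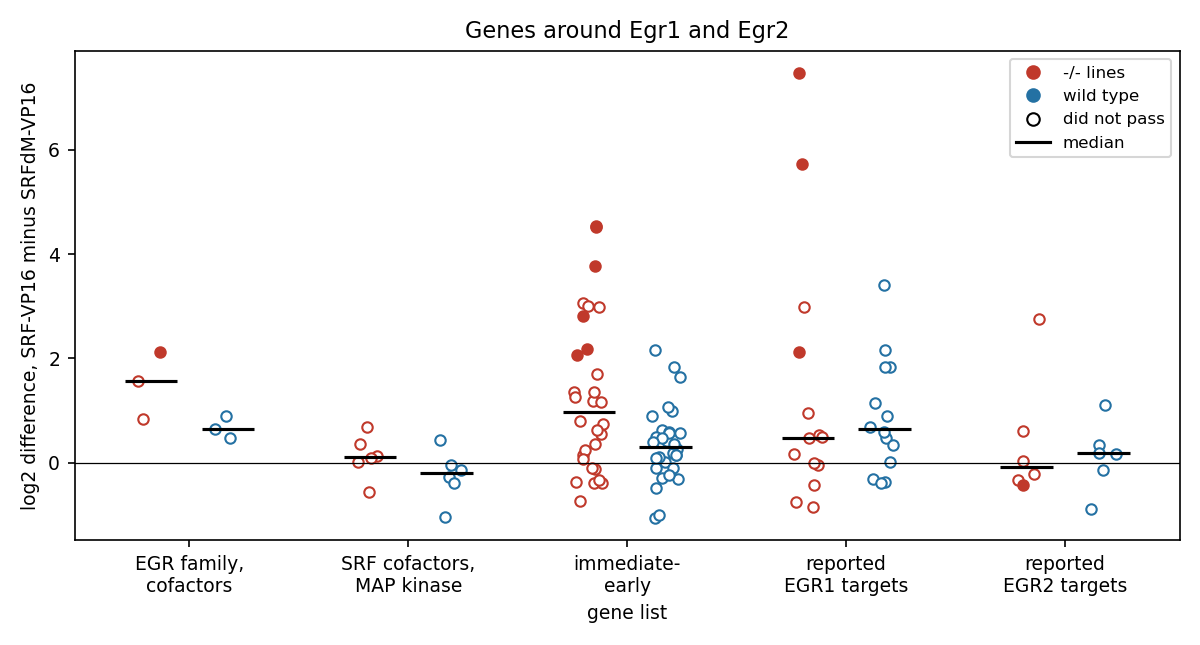
Log2 difference between SRF-VP16 and SRFdM-VP16 for each gene of the lists, in the -/- lines (red) and wild type (blue); filled points passed the adjusted threshold, the black bar is the list's median, and Egr1 and Egr2 are not included. The immediate-early list has a median of 0.98 in the -/- lines (0.64 without the first E81 SRFdM-VP16 array) and 0.31 in wild type, and the EGR1 target list 0.48 in the -/- lines and 0.64 in wild type.

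Across the 12 line by plasmid group means, Egr1 and Egr2 themselves correlated with r = 0.583. The groups share lines and plasmids, so this and the values below are descriptions of the 23 arrays. Among 6784 genes, those most like Egr1 were Igfbp6, an IGF-binding protein, and Tagln, a smooth-muscle actin-binding protein (r = 0.912 for each), followed by Sfmbt2 (0.909), Ccn2 (0.904) and Cldn4 (0.903). Those most like Egr2 were Slc23a3 (r = 0.934), Tns2 (0.918), Sct (0.914), Atp2a1 (0.912) and Tnnc1 (0.910). These 5 genes like Egr2 had differences between SRF-VP16 and SRFdM-VP16 of -0.29 to 0.23 in E99 and wild type, for example Tnnc1, the slow troponin C of muscle, with 4.10 in the -/- lines, 0.00 in E99 and 0.09 in wild type. Intensities ran from -207 to 2011 for Tnnc1, -40 to 289 for Atp2a1 and -146 to 188 for Tns2, so differences of 0 are set by the floor, and the genes were picked for following Egr2 over these same groups. The 5 genes like Egr1 had differences of 0.25 to 4.41 in E99 and of -0.00048 to 4.22 in wild type. Igfbp6 had 8.34 in the -/- lines, 4.41 in E99 and 4.22 in wild type, and it alone of the 5 passed in E99 or wild type. Sfmbt2, Ccn2 and Cldn4 did not pass in the -/- lines either (limma adjusted p = 0.32, 0.067 and 0.09).

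ES cell identity was checked with 10 markers, all measured, with Pou5f1 among the bright ones. The marker Dppa3 differed between lines, which the sums below do not show. With SRFdM-VP16 it had -143 to 25 in the -/- lines, 314 to 1277 in E99 and 209 to 496 in wild type. In -/- minus E99 controls it was the only marker that passed (-2.89, limma adjusted p = 0.022). The summed intensity of the 10 markers was 36962 to 63573 with SRF-VP16 and 55191 to 115260 with SRFdM-VP16 in the -/- lines. These ranges pool 2 unlike lines. In E100 the sum was 36962 to 49898 with SRF-VP16 and 93953 to 115260 with SRFdM-VP16, so it was clearly lower with the activator. In E81 it was 55197 to 63573 with SRF-VP16 and 55191 to 84594 with SRFdM-VP16, which overlap. In E99 it was 73349 to 85518 with SRF-VP16 and 91244 to 91728 with SRFdM-VP16. In wild type it was 56086 to 62895 with SRF-VP16 and 56423 to 91255 with SRFdM-VP16. With SRF-VP16 in the -/- lines Fgf4 and Klf2 fell and none rose, where 0.367% of named genes fell. The part of this shift in the Egr1 and Egr2 values was not tested. The sums of 6 fibroblast markers were 759 to 1315 with SRF-VP16 and 848 to 1228 with SRFdM-VP16 in the -/- lines. Those of 3 neural crest and Schwann cell markers were 583 to 997 with SRF-VP16 and 421 to 1281 with SRFdM-VP16. Those of 2 blood markers were 1431 to 3087 with SRF-VP16 and 847 to 1793 with SRFdM-VP16. None of these markers passed. Array medians ran from 53.5 to 207, and the lowest belonged to the first E81 SRFdM-VP16 array, which also correlated least with the others (median r = 0.878). Without that array the rise in the -/- lines was 6.14 for Egr1 and 3.72 for Egr2, and both passed.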

How the data were processed

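The deposited values, per the labels' table, are 1 linear intensity per probe set and array for 23 arrays in 12 groups. The scanner software, background correction and scaling are not stated in the labels or the file. Of the deposited intensities 29.1% were at or below 0. They were used without further scaling, with a floor at the 40th percentile of all values (58), and put on the log2 scale. Of 12502 probe sets, 66 controls were left out, and 9643 lay above the 40th percentile of their own array in at least 2 arrays and were tested; 2793 were removed. Of the probe sets without controls 10141 have 1 gene symbol, 362 several and 1933 none, and 10122 of the symbols matched RefSeq (GRCm38.p6). A list gene with several probe sets is represented by its brightest.

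limma 3.58.1 (R 4.3.3) fitted 1 mean per group over all arrays, with an intensity trend and 11 residual degrees of freedom, so groups of 1 or 2 arrays share 1 spread. Tests were two-sided, Benjamini-Hochberg adjusted over all 9643 probe sets, with a threshold of 0.05. The fit was tested on simulated data. Replicate numbers are not used as pairs. The differences between replicates of 1 line correlated from -0.35 to 0.42 across plasmids. The signs followed a pattern, which is described here without a test. E99 with vector, E99 with SRFdM-VP16 and wild type with SRF-VP16 correlated positively with each other and negatively with every other group. The remaining groups all correlated positively among themselves, also across lines. Whether the duplicates share a batch, numbered the other way in some groups, was not tested, and no fit allows for it. The list genes named are the up to 4 with the smallest adjusted p among those past the threshold in the -/- comparison, plus fixed names of the EGR circuit; Jun, Zfp36, the genes most like each member (by Pearson r) and genes of short call lists stand outside that rule. Members and lists were chosen with earlier results of these data known. Alternatives changed scaling, floor, filter, variance model, arrays fitted, control plasmid and replicate block, and left out each array in turn. Matplotlib 3.10.9 drew the plots.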

Additional observations from a re-analysis of the deposited data

Results flagged for a closer look

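The Egr2 response to SRF-VP16 differed between lines. It was larger in the -/- lines than in wild type by 5.32 on the log2 scale (limma adjusted p = 0.00014), higher than its controls on all 4 -/- arrays and lower on both wild-type arrays. It was larger in the -/- lines than in E99 by 3.01 (adjusted p = 0.036), with all SRF-VP16 arrays of both above their controls. Between E99 and wild type every array moved the opposite way, by a difference of 2.31, which was tested and did not pass (limma adjusted p = 1.0). The cause of these differences was not tested, and line and genotype cannot be told apart.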

How the results depend on the processing

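The rises of Egr1 and Egr2 in the -/- lines passed in all 18 alternatives run for each (5.41 to 7.83 for Egr1, 3.32 to 4.01 for Egr2), those over all lines in 26 each, and those of the -/- lines with SRF-VP16 over wild-type controls in 19 each. Where a result changed its call, the cause was not tested.

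With only the arrays of a comparison fitted, these did not pass in limma: Egr1 in E81 at 5.20 (adjusted p = 0.32) and E100 at 7.02 (0.32), Egr2 in E81 at 3.41 (0.41) and E100 at 4.0 (0.20), the Egr2 response in the -/- lines minus wild type at 5.32 (0.059) and minus E99 at 3.01 (0.094), Egr2 under SRF-VP16 in -/- minus wild type at 5.58 (0.14) and in E99 minus wild type at 2.57 (1.0), and Egr1 in -/- minus E99 controls at -2.64 (0.16). With the floor at the 60th percentile, the Egr1 response in the -/- lines passed against wild type at 2.93 (0.036) and E99 at 2.89 (0.039), Egr1 under SRF-VP16 in -/- minus wild type passed at 2.52 (0.0047), and Egr2 in E99 minus wild type did not, at 1.61 (1.0). With vector as the control, the Egr1 response in -/- minus E99 passed at 5.14 (0.041), the Egr2 difference in wild type passed at -2.19 (0.048) and the Egr1 response in E99 minus wild type was -0.18. With vector alone, Egr2 in E99 minus wild type was -0.15, and with SRFdM-VP16 alone, Egr1 in -/- minus E99 was -1.82 (1.0).

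Among scalings, division by the array median gave -0.28 for the Egr1 response in E99 minus wild type, 0.26 for Egr2 in SRFdM-VP16 minus vector, -0.18 for Egr2 in -/- minus E99 controls, 3.23 (0.17) for the Egr2 response in -/- minus E99 and 2.33 (0.66) for Egr2 under SRF-VP16 in E99 minus wild type. Quantile normalization gave -0.12, 3.03 (0.11) and 2.49 (0.18) for the last 3 of these. The inverse hyperbolic sine gave 3.01 (0.087) and 2.51 (0.15) for the last 2 of these and -3.18 (0.11) for Egr1 in -/- minus E99 controls, which without the intensity trend was -2.64 (0.068).

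The replicate block used the numbers as labelled, although replicate differences ran in opposite directions between some groups. With it, limma passed Egr1 under SRF-VP16 in -/- minus wild type at 2.52 (0.049, block across groups). With the block limma did not pass Egr2 in E99 minus wild type at 2.57 (0.076, across) or 2.60 (0.64, within line). Nor did it pass the Egr2 response in -/- minus E99 at 3.01 (0.18, within line) or Egr1 in -/- minus E99 controls at -3.34 (0.058, within line).

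Leaving out 1 array at a time gave, for Egr1, responses of 2.82 to 4.22 (-/- minus wild type), 2.78 to 4.18 (-/- minus E99) and -0.48 to 0.56 (E99 minus wild type), control differences of -2.07 to -1.37 (-/- minus wild type) and -2.99 to -2.29 (-/- minus E99), and 0.60 to 1.30 for SRFdM-VP16 minus vector, which passed without the first E100 SRFdM-VP16 array (adjusted p = 0.037). For Egr2 it gave 2.71 to 3.31 (response in -/- minus E99, not past the threshold in 5 cases), -1.19 to 0.023 (E81 minus E100), -0.022 to 0.12 (E99 minus wild type, controls) and 2.18 to 2.95 (E99 minus wild type with SRF-VP16). Egr1 minus Egr2 ran from 1.70 to 2.83, with an exact p of 0.057 without any 1 SRF-VP16 array and 0.029 without any 1 SRFdM-VP16 array. With vector as the control it was 4.45 (exact p = 0.029).

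Genes named beside them turned sign in the -/- lines as follows: Elk3 at -0.037 (quantile) and -0.50 (vector); Elk4 at -0.13 (quantile), -0.25 (array median) and -0.43 (vector), and -0.22 to 0.48 without 1 array; Fosb at -0.026, -0.23 and -0.096 under the same 3, and -0.051 to 0.35; Fos at 0.19 (vector), and -0.29 to 0.047; Hoxa2 at -0.85 to 0.19 and Ier2 at -0.23 to 0.034.

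Counts of probe sets past the threshold moved by over 1.5 times for every comparison but the -/- response (272, with 226 to 349 under 5 alternatives): E99 4 (0 to 9), wild type 2 (0 to 7), E81 97 (58 to 168), E100 114 (41 to 177), all lines 189 (142 to 342), responses in -/- minus wild type 8 (4 to 19), in -/- minus E99 7 (1 to 22), in E99 minus wild type 1 (0 to 2) and in E81 minus E100 14 (1 to 22), controls in -/- minus wild type 8 (2 to 82), E99 minus wild type 7 (1 to 11) and -/- minus E99 11 (5 to 102), with SRF-VP16 in -/- minus wild type 44 (7 to 59) and E99 minus wild type 3 (0 to 6), -/- with SRF-VP16 minus wild-type controls 170 (107 to 230) and SRFdM-VP16 minus vector 77 (1 to 179). At an unadjusted p under 0.05, limma as fitted gave 432 probe sets in E99, 346 in wild type, 150 for the response and 315 under SRF-VP16 in E99 minus wild type.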
